A study of Rattus norvegicus with 23 samples.

Results

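High smoke was compared with air in the lungs of male rats, over all genes of the table and with these 2 groups alone in the fit. The comparison rests on 14 of the 22 libraries with values, 7 from rats kept in filtered air and 7 from rats kept in eucalyptus smoke at the higher of 2 concentrations. In the design given by the labels 24 rats were divided at random by body weight, 8 to a group, and each library is named for its own rat. Smoke was breathed by the whole body on 4 days of week 1 and, after 3 days without exposure, on 3 days of week 2, at a carbon monoxide target of 20 ppm for the high concentration and 10 ppm for the low one, a schedule modelled on fire line shifts. The labels give no strain, age, treatment of the animals other than the smoke, or time between the last exposure and the collection of the lung. High smoke replicate 8, labelled as a quality drop-out, was not analysed here, and the labels say that 1 air sample was removed for the same reason. Each library was made from the RNA of about 35 mg of frozen lung, so it holds all cell types of that piece, and fewer cells of a type and less RNA per cell cannot be told apart.

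Wood smoke carries fine particles, carbon monoxide, aldehydes, quinones and polycyclic aromatic hydrocarbons. In the lung these meet the airway lining, the thin alveolar type 1 cells, the surfactant-making alveolar type 2 cells and the resident macrophages. Known defences include the aryl hydrocarbon receptor, which turns on Cyp1a1 and its relatives, and the transcription factor NRF2, which turns on enzymes that remove quinones and peroxides. Tissue under repeated exposure can also change its antigen presentation, mitochondria, protein breakdown and lipid synthesis, and the genes of these systems are taken in turn below.

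Depth was 8484131 to 11640645 read equivalents in air (median 9504911) and 9056576 to 12055527 in high smoke (median 10347946). All values are normalized counts, and a fold change is on the log2(value + 1) scale. The 3 high smoke libraries numbered 1, 3 and 7 stood apart. On the first principal component, with 26.4% of the variance, they scored 48.6, 38.3 and 32.7, the other 4 high smoke libraries -3.1 to 4.5 and the air libraries -26 to -5.2. Most named changes are therefore followed by the log2 change from a fit that left these libraries out, written as "then" or "without the 3". Defining lung markers were present in both groups, with lowest values of 53126 for Sftpc, 7763 for Ager, 4575 for Scgb1a1 and 5869 for Cdh5.

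Of 14403 genes tested with limma, 1363 passed an adjusted p of 0.05 (9.46%). Of these, 872 rose in high smoke (6.05%) and 491 fell (3.41%). An unadjusted limma p below 0.05 was found in 3880 of the 14403 genes, against which such counts in the lists below are to be read. The changes were small: the median size among the called genes was 0.47 on the log2 scale, and only 110 changed more than 2-fold, 96 of them up and 14 down. In 271 genes (1.88%) the groups did not overlap, with every high smoke library above every air library in 189 (1.31%) and below in 82 (0.569%). Scaling every library to an equal total turned the balance, to 601 that rose and 1005 that fell, and moved the median change of all genes from -0.0019 to -0.08 on the log2 scale.

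**Figure D1:**
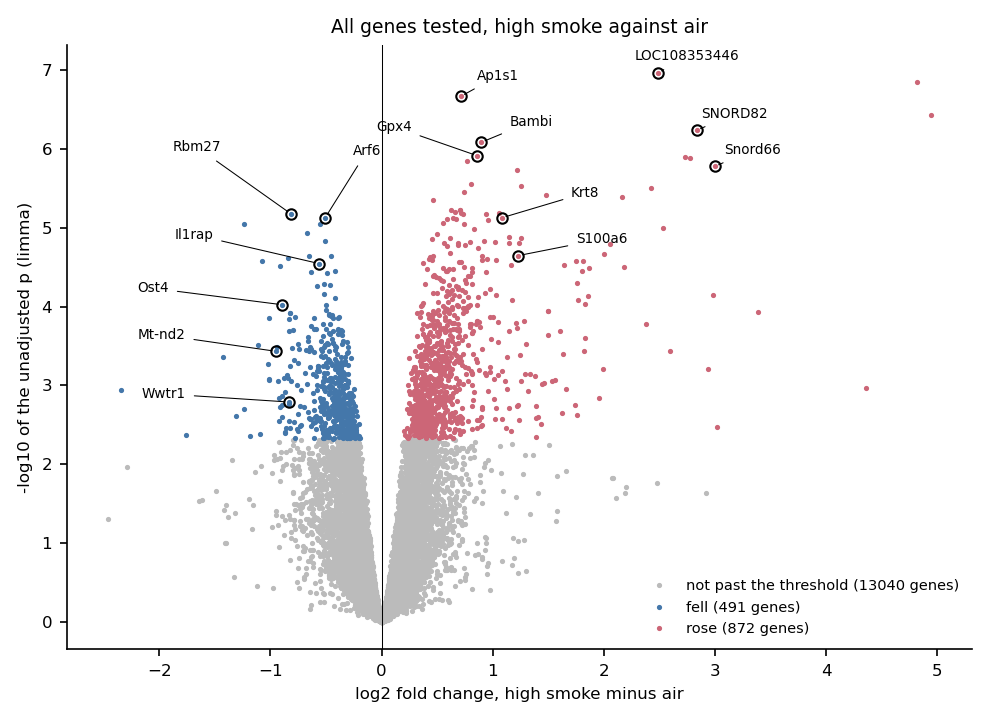
Each point is 1 of the 14403 genes tested, with its log2 fold change in high smoke against air on the horizontal axis and the unadjusted limma p, as -log10, on the vertical axis; colours mark the 872 genes that rose and the 491 that fell. The far right holds small nucleolar RNAs such as Snord66 at 3.00, while the labelled falls lie between -0.95 and -0.51.

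Without high smoke replicates 1, 3 and 7 together, 3 of 14395 genes passed the same limma test (0.0208%), and 1646 had an unadjusted p below 0.05. The 3 were Ap1s1, Bambi and LOC108353446, a pseudogene row named after its values were seen. All 1351 called genes that were still tested kept their sign in that fit, which shares its air libraries and 4 of its high smoke libraries with the full one, and the median of their changes relative to the full fit was 0.704. High smoke replicates 1, 3 and 7 lay above the highest air library in 95.5%, 95.2% and 95.5% of the genes that rose. The other 4 did so in 47.0% to 70.0%. For the genes that fell, the 3 lay below the lowest air library in 93.5% to 95.3% and the other 4 in 46.2% to 67.8%. Both sets of genes were called with these same libraries, so the selection itself raised such shares, and no share over all genes was computed. What set the 3 libraries apart was not tested.

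Ap1s1, a small subunit of the clathrin adaptor AP-1 that sorts cargo between the Golgi and endosomes, had the smallest p among genes with a protein product (chromosome 12, 22665112 to 22676076 in build rn6). Its lowest, median and highest values were 174, 186 and 201 in air and 258, 293 and 373 in high smoke. The groups did not overlap, and low smoke lay between them with a median of 223. Ap1s1 rose by 0.71 on the log2 scale (SE 0.09, adjusted p = 0.00103), and by 0.58 without the 3 (adjusted p = 0.0415). Bambi, a membrane protein without a kinase domain that acts as a decoy receptor for transforming growth factor beta, ran 225, 242 and 305 in air against 365, 427 and 708 in high smoke, again with no overlap. It rose by 0.90 (SE 0.12, adjusted p = 0.00197), and by 0.75 without the 3 (adjusted p = 0.0415).

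Several cytoskeletal, ion channel and nuclear proteins also rose with no overlap between the groups. Ptms, a small acidic nuclear protein, went from a median of 1755 in air to 2981 in high smoke (log2 0.80, then 0.65). Kcne2, an accessory subunit of potassium channels, stood at 522 in air and 805 in high smoke (log2 0.71, then 0.52). Twf2, which binds actin monomers, moved from 212 to 326 (log2 0.71, then 0.52). Tmem132a had the smallest change of this set, 0.46 (then 0.43), with a spread in high smoke of only 686 to 878. The annotation places genes on the opposite strand over Ptms, Tmem132a, Tapbp, Fth1, Cyp2e1, Lpcat3, Rps9, Rpl37 and Hsd17b7. The same holds for Ager, Gsta1, Uqcrc2, Cldn5, Tppp3 and Hnrnph3. The strand setting of the counting is not given in the sources used here, so reads of such pairs may not be told apart. Krt19, Tagln and Hnrnpa3 overlap a gene on their own strand. Other genes named here overlap neighbours too.

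The falls with no overlap included genes of membrane traffic and protein degradation. Arf6, a small GTPase of endosome recycling, ran 772, 819 and 961 in air and 502, 572 and 705 in high smoke (log2 -0.51, SE 0.08, adjusted p = 0.00333, then -0.43). The cullin scaffolds of ubiquitin ligases fell, Cul4b by 0.55 and Cul2 by 0.47 on the log2 scale. Snx4, a sorting nexin of the recycling pathway, fell by 0.49, Cog6, a subunit of the Golgi tethering complex, fell by 0.51, and Mtmr2, a phosphoinositide phosphatase, fell by 0.46. Without the 3 libraries these 6 genes stood between -0.50 and -0.37.

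Other falls with no overlap were found at lower levels or in the endoplasmic reticulum. Rbm27, an RNA-binding zinc finger protein, went from 194, 255 and 276 in air to 102, 146 and 181 in high smoke (log2 -0.81, adjusted p = 0.00333, then -0.59), and replicates 1, 3 and 7 were the lowest of its high smoke libraries. Ost4, the smallest subunit of the enzyme that attaches N-linked sugars, fell from a median of 43.5 to 22.8 (log2 -0.89, then -0.70). Serp1, which protects newly made membrane proteins in the endoplasmic reticulum, fell from 2656 to 1548 (log2 -0.67, then -0.49), and its locus overlaps Eif2a. Il1rap, the co-receptor needed for signalling by interleukin-1 and interleukin-33, fell from 390.4 to 272 (log2 -0.56, then -0.42), with its highest high smoke library at 301 and its lowest air library at 339. Cnst, Ghitm, Fam3b, Ccdc50, Card14 and Fam183a also fell, by 0.76 to 0.85 on the log2 scale, and their groups overlapped.

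**Figure D2:**
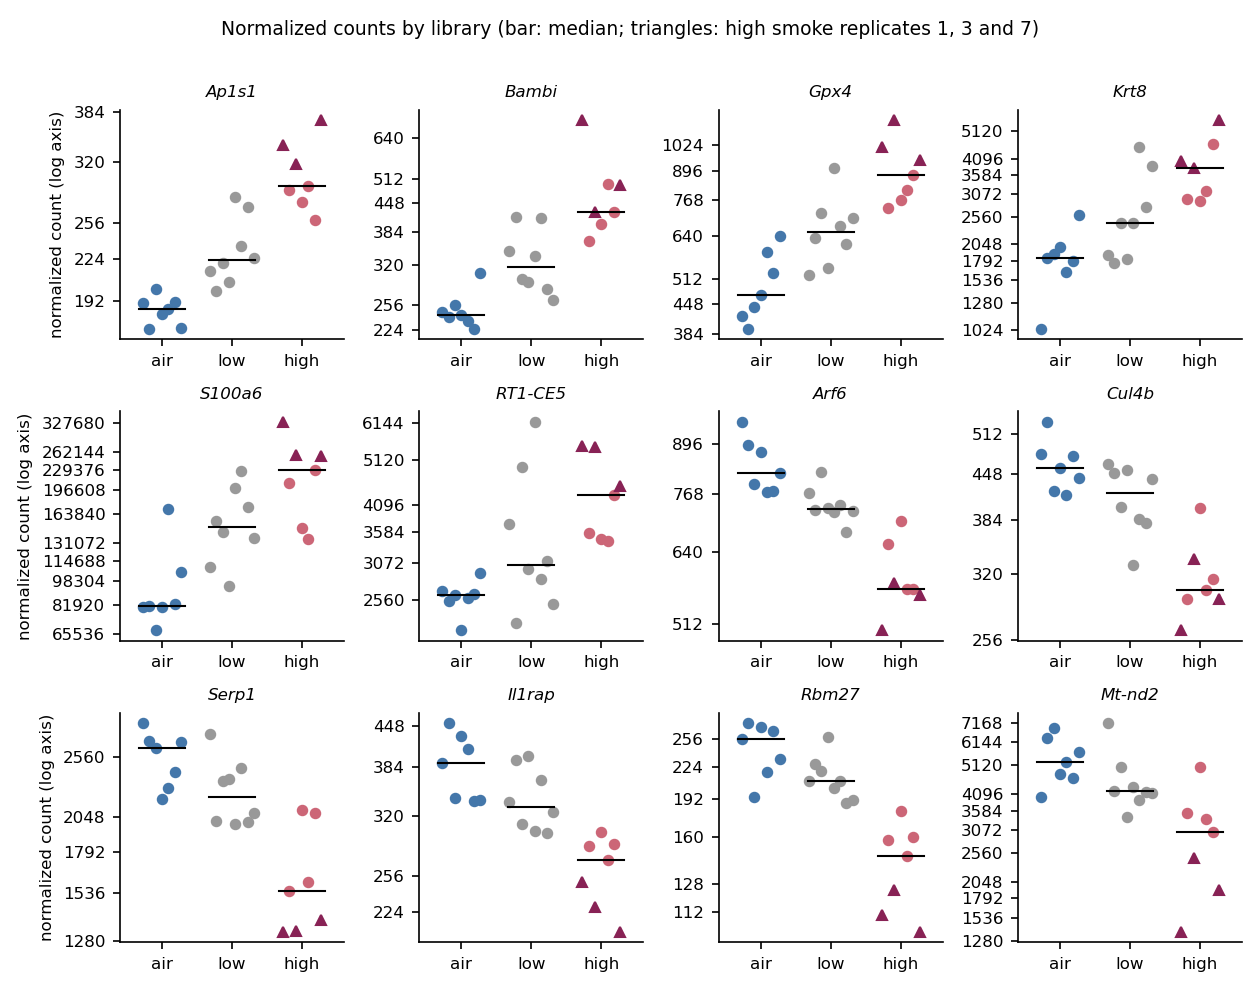
Normalized counts on a log2-spaced axis are plotted for 12 genes in each air, low smoke and high smoke library, with the group median as a bar and high smoke replicates 1, 3 and 7 as triangles. Every high smoke point of Ap1s1, Bambi, Gpx4, Krt8 and RT1-CE5 lies above every air point, every one of Arf6, Cul4b, Serp1, Il1rap and Rbm27 lies below, and the points of S100a6 and Mt-nd2 overlap.

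The largest rises among named genes of substantial level, apart from small nucleolar RNAs, included Acot8, Ndufc1, S100a6, RT1-Db2 and Lamtor4. Acot8, a thioesterase of peroxisomes, ran 214, 252 and 506 in air and 504, 557 and 1261 in high smoke, where the lowest library just missed the highest air value (log2 1.26, then 0.89). S100a6, a calcium-binding protein and the most abundant of these, ran 67341, 81359 and 169650 in air against 135158, 228653 and 331223 in high smoke. The groups overlapped through 1 high air library and 2 low high smoke libraries (log2 1.23, SE 0.22, adjusted p = 0.00501, then 0.94). Rarres2, the precursor of the chemoattractant chemerin, rose from a median of 116 to 259.5 with no overlap (log2 1.16, then 0.76). Ccno, a cyclin-like protein needed to form multiciliated cells, rose from 111 to 226 (log2 1.18, then 0.99). Chia, the acidic chitinase of the lung, rose from 6643 to 13566 (log2 0.97, then 0.77). Ifit1bl, an interferon-induced gene by name, Letm2 of the mitochondrial inner membrane and Svbp, which helps remove the last tyrosine of tubulin, changed by 1.22, 1.05 and 1.05, and all 3 lost much of it without the 3 libraries (0.63, 0.63 and 0.56). Annotated neighbours overlap Acot8, Rarres2 and Lamtor4.

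Small nucleolar RNAs are short RNAs cut from introns that guide methylation or pseudouridylation of ribosomal RNA. Of 251 such rows in the table, 51 reached the level filter and 34 of these reached it by their air libraries alone. Among the 34, 25 rose and none fell, with a median log2 change of 1.62 (then 1.21) against -0.0019 over all genes. Not all of these rows are separate signals. AABR07030184.3 and AABR07030184.4, named after their values were seen, had equal means of 13.1 in air and 36.6 in high smoke. AABR07030184.1 had the same high smoke mean, and each was counted as a row. The other 17 passed the filter only through their high smoke values, so a higher value there was a condition of testing them; 12 of the 17 were called and 10 of the 17 were no longer tested without the 3 libraries. Snord66 ran 189, 678 and 1228 in air and 1838, 6616 and 8341 in high smoke with no overlap, and low smoke had a median of 1987. The spread inside high smoke was wide, with replicates 2 and 4 lowest and replicates 1 and 3 highest. SNORD82, Gm23650, Snord92 and SNORD58 followed, with log2 changes of 2.83, 2.77, 2.73 and 2.53 (then 2.41, 2.32, 2.31 and 1.96).

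Host genes had smaller changes. For 19 of the 34 rows the gene that holds them on the same strand was itself tested, and these 17 hosts had a median log2 change of -0.02, with 1 that rose, 2 that fell and 14 not past the threshold. Each of the 19 rows had a higher change than its host. Snord66 changed by 3.00 while its host Eif4g1 stood at -0.14, and the host of SNORD82, Ncl, stood at -0.18. SNORD18 and Rpl4 had 2.43 and 0.24. These 3 hosts were chosen after their values were seen. Some rows share sequence with near-identical copies, so reads could be divided between them.

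**Figure D3:**
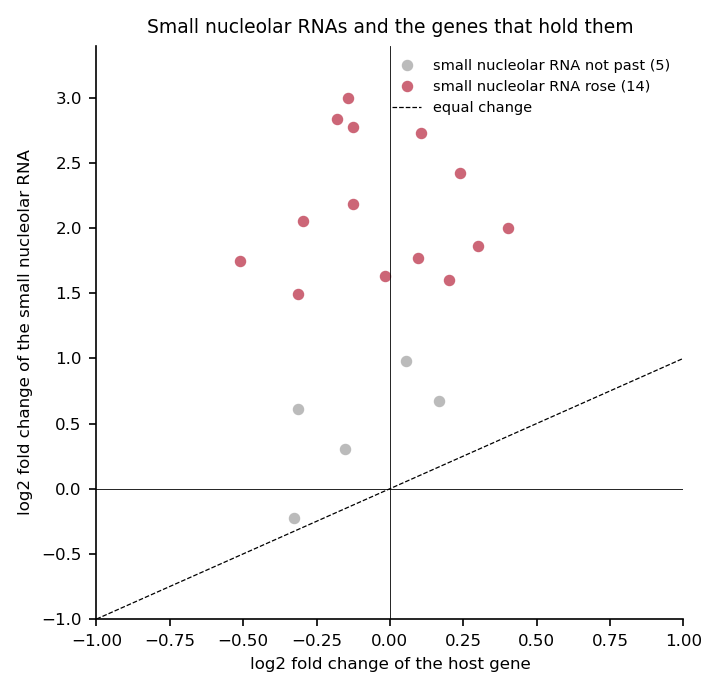
Each of 19 points is a small nucleolar RNA row that reached the level filter in air alone, with its own log2 change in high smoke against air on the vertical axis and that of the gene holding it on the horizontal axis; the dashed line marks equal change. All points lie above the line, the hosts between -0.51 and 0.40 and 14 of the rows past the threshold.

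MicroRNA rows hold reads from the precursor loci, since these libraries were not made from size-selected small RNA as far as the labels say. Of 16 rows tested, 11 reached the level filter by their air libraries alone, and of these 1 rose and 1 fell. The other 5 passed it only through high smoke, so their calls are not counted. The row that rose was Mirlet7b, named after its values were seen, with 3.16, 8.24 and 26.2 in air and 12.3, 21.2 and 43.3 in high smoke (log2 1.41, then 1.28). The groups overlapped, the values lie near the filter, and no row of the 11 rose once a trend along gene span was taken out. Its mature product, from RefSeq on build GRCr8 with the seed (bases 2 to 8) in capitals, is shown because the table gives only the locus name.
rno-let-7b-5p: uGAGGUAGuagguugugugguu

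Several peroxide-removing enzymes rose. Of 23 genes tested, 5 rose and none fell (21.7% called, against 9.46% of all genes, median 0.11, then 0.06). They were Gpx4, Gpx8, Cat, Glrx and Sod1. Gpx4, the selenoenzyme that reduces lipid hydroperoxides in membranes, ran 395, 469 and 639.9 in air and 739.9, 876 and 1165 in high smoke, with no overlap and a low smoke median of 652 (log2 0.86, SE 0.12, adjusted p = 0.00206, then 0.70). Gpx4 overlaps Sbno2 in the annotation. Cat, the peroxisomal catalase, ran 1462, 1617 and 2079 against 2087, 2623 and 3669, also with no overlap, and replicates 1, 3 and 7 were its 3 highest libraries (log2 0.71, adjusted p = 0.00502, then 0.46). Glrx, a glutathione-dependent reductase of protein thiols, changed by 0.81 (then 0.38) and Gpx8, a peroxidase of the endoplasmic reticulum, by 0.55 (then 0.34). Sod1, the cytosolic superoxide dismutase, changed by 0.46 (then 0.34), and was named after its value was seen.

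The promoters of Gpx4 and Cat are shown because every high smoke library lay above every air library for both enzymes and both windows hold repeated CCAAT boxes. They are RefSeq sequence on build GRCr8, 250 bases before to 50 after the annotated start, read in the direction of the gene, with CCAAT or its reverse complement ATTGG in capitals. The Gpx4 window is chr7:10303580-10303879 and the Cat window chr3:110329477-110329776, both on the minus strand.
Gpx4: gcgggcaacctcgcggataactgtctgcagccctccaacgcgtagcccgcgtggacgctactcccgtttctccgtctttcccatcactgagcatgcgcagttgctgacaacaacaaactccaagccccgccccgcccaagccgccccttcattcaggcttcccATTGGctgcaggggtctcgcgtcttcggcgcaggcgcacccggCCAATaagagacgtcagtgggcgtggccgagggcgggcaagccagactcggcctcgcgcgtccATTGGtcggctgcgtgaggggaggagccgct
Cat: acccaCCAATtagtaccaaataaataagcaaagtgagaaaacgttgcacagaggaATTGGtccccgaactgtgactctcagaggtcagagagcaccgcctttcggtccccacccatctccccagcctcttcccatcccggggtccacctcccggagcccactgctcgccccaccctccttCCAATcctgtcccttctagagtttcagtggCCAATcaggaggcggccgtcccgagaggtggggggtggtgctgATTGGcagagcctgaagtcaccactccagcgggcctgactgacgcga

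Gpx4 has 3 such boxes and Cat 5, and neither holds the core of the antioxidant response element, TGACNNNGC, on either strand. CCAAT was present in 37.5% of 33469 windows of this length and in 10 of 23 windows of the peroxidase list. The TGACNNNGC core was present in 12.1% of all windows and in 6 of those 23. These shares describe windows and not binding.

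Sentinel genes of combustion products did not pass. Cyp1a1, which oxidizes polycyclic hydrocarbons, ran 1.05, 7.56 and 20.6 in air and 3.82, 11.9 and 31.8 in high smoke (log2 0.74, SE 0.57, adjusted p = 0.422), and the groups overlapped across most of their range. Cyp1b1 stood at -0.14 and Tiparp at -0.11. None of the 11 tested targets of the aryl hydrocarbon receptor passed, with 2 at an unadjusted p below 0.05 and 0 by the rank-sum test. Over all genes 3880 of 14403 had such an unadjusted p. Nqo1, which reduces quinones, had a log2 change of 0.27 (adjusted p = 0.129), Gclc of -0.03, Txnrd1 of -0.18 and Hmox1, which degrades heme, of -0.17 with 1 air library at 1395 and of 0.19 without it. Of 23 NRF2 targets tested, 3 rose and 2 fell (21.7% called, against 9.46% of all genes, median 0.03, then -0.01). Fth1, the ferritin heavy chain that stores iron, rose by 0.87, Osgin1 by 0.82 and Ephx1, which opens epoxides, by 0.41; Me1, a source of NADPH, fell by 0.44 on the log2 scale, and Taldo1 of the pentose phosphate pathway, named after its value was seen, fell by 0.49.

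Conjugating enzymes rose in part. Of 18 glutathione transferases tested, 4 rose and none fell (22.2% called, against 9.46% of all genes, median 0.20, then 0.11). Gsta1, an alpha-class enzyme that acts on lipid aldehydes, ran 516, 651 and 834 in air and 849.7, 945 and 1415 in high smoke with no overlap (log2 0.74, then 0.49). Mgst3 changed by 0.96 (then 0.47) and Gstk1 by 0.86 (then 0.68). Of 32 cytochromes P450 tested, Cyp2e1 rose (0.94, then 0.67) and Cyp2u1 fell (-0.53, then -0.38). This was 6.25% called, under the 9.46% of all genes. None of 15 aldehyde dehydrogenases passed, with 4 at an unadjusted p below 0.05 (3880 of 14403 over all genes) and 0 by the rank-sum test.

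Genes of the rat histocompatibility complex, RT1, gave rises and no falls. Of 26 RT1 rows tested, 10 rose (38.5% called, against 9.46% of all genes). A positive change was found in 23, as in 49.7% of all genes tested (median 0.34, then 0.27, over all genes -0.0019). The RT1 list and the class II list below share rows such as RT1-DMb. With equal library totals 6 of the RT1 rows rose. RT1-CE5, a class I heavy chain that displays peptides to T cells, ran 2202, 2626 and 2930 in air and 3432, 4300 and 5489 in high smoke with no overlap (log2 0.71, SE 0.11, adjusted p = 0.00333, then 0.50). RT1-A1, another class I heavy chain, changed by 0.94 (then 0.55). Of the class II chains, RT1-Db2 changed by 1.23 (then 0.84) and RT1-DMb, part of the molecule that loads peptides, by 1.06 (then 0.75), both with no overlap. RT1 genes have near-identical copies, so how the reads were divided among them is uncertain.

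Class II genes are known to share a promoter block in which an inverted CCAAT, the Y box, follows the X box. The windows of RT1-Bb (chr20:4604069-4604368) and RT1-Db1 (chr20:4560113-4560412), class II beta chains on the minus strand of build GRCr8, are shown because both rose, by 0.52 and 0.33 (then 0.33 and 0.28). They were taken from RefSeq and span 250 bases before to 50 after the annotated start, read in the direction of the gene, with CCAAT or its reverse complement ATTGG in capitals.
RT1-Bb: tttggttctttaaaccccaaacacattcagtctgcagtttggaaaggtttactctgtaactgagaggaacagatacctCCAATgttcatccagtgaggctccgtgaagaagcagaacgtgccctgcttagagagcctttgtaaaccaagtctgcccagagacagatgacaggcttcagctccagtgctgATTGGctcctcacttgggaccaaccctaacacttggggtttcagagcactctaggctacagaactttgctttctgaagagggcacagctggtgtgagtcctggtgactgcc
RT1-Db1: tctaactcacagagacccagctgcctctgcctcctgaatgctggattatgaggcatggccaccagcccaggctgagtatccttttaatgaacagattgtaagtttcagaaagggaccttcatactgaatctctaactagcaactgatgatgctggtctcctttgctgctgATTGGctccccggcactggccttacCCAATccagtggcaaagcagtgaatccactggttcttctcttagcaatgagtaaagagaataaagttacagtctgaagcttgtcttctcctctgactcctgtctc

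CCAAT was present on either strand in 10 of 13 windows of the class II list (76.9%) and in 37.5% of 33469 windows of this length. In the list itself 3 of 14 tested genes rose and none fell (21.4% called, against 9.46% of all genes, median 0.33, then 0.15). A match to these letters is a description of the window, not of a bound site.

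In the class I loading machinery 4 of 15 genes rose (26.7% called, against 9.46% of all genes). With equal library totals 2 of the 15 rose. Tapbp, which bridges class I chains to the peptide transporter, changed by 0.37 (then 0.38), and Tap2, a subunit of that transporter, by 0.36 (then 0.35). Psmb8, a catalytic subunit of the immunoproteasome, changed by 0.44 (then 0.50) and Erap1, which trims peptides, by 0.36 (then 0.28). Irf1, a transcription factor induced by interferon gamma, was the only member of a list of 29 interferon response genes to pass. That is 3.45% called, under the 9.46% of all genes, and Ifit1bl, named above, was not in that list. Irf1 went from a median of 1055 to 1514 with no overlap (log2 0.46, then 0.40).

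Complement genes rose in 4 of 25: C1qb (0.79, then 0.67) and C1qc (0.42, then 0.29), chains of the recognition molecule C1q made by macrophages, C1r (0.40, then 0.33), its protease, and Vtn (0.48, then 0.36), which restrains the terminal pathway. None fell, so 16% were called, against 9.46% of all genes, but with equal library totals 3 rose and 3 fell. Serpina1, the main inhibitor of neutrophil elastase, rose by 0.63 (then 0.59).

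None of 18 cytokine, chemokine and selectin genes passed, with 2 at an unadjusted p below 0.05 (3880 of 14403 over all genes) and 0 by the rank-sum test. The median of the 18 was -0.02 (then -0.25). Cxcl3, a neutrophil attractant, had an air median of 1528 and a high smoke median of 1003 (log2 -0.48, adjusted p = 0.0909). Tnfaip3, a brake on NF-kappaB, stood at 138 and 85.5 (adjusted p = 0.106). None of 7 neutrophil markers passed, with 2 at an unadjusted p below 0.05 and 0 by the rank-sum test. S100a9 of neutrophils had a log2 change of -0.05, and S100a8 was under the level filter with medians of 6.65 and 2.86.

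Immune cell markers gave calls in some lists and none in others. Of 9 alveolar macrophage markers, Itgax, an integrin chain of these cells, fell from 743, 904 and 1058 to 649, 702 and 767 (log2 -0.34, then -0.36), although it overlaps Itgam. This 1 call was 11.1% of the list, against 9.46% of all genes. The summed level of that list was 5458 to 6864 in air and 5453 to 7022 in high smoke. Of 13 markers of interstitial macrophages and monocytes, the 2 that rose were the C1q chains above (15.4%, against 9.46% of all genes called in either direction). In 13 B cell and plasma cell markers, 11 had a positive change, and the median was 0.34 (then 0.20). Of the 13, 3 were called (23.1%, against 9.46% of all genes), none of them by the rank-sum test. Cd79a, the signalling chain of the B cell receptor, and Sdc1 rose by 0.71 and 0.46, and Mzb1 of plasma cells fell by 1.01 from a median of 16.6 to 7.95, a row that passed the level filter through its air values. The summed level of these B cell markers was 5399 to 9077 in air and 7953 to 13073 in high smoke. Sdc1 alone stood at 5332 and 5699 in air replicates 1 and 2, so a large part of the sum was 1 gene. The part of B cells in the class II values was not tested. No T cell marker of 11 passed; 0 had an unadjusted p below 0.05 and 0 passed the rank-sum test.

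Some epithelial structural genes rose. Keratin genes Krt8 and Krt7, which form the intermediate filaments of simple epithelium, rose with no overlap. Krt8 ran 1037, 1835 and 2606 in air and 2898, 3809 and 5584 in high smoke (log2 1.08, SE 0.17, adjusted p = 0.00333, then 0.91). Krt7 changed by 0.67 (then 0.58), and Krt222 was the other of 13 keratins to rise (1.03, then 0.81). This was 23.1% called, against 9.46% of all genes. Krt19 missed the threshold at 0.48 (adjusted p = 0.0651). Ager, the receptor that marks alveolar type 1 cells, ran 7763, 10786 and 14252 in air and 12365, 17658 and 18337 in high smoke (log2 0.69, then 0.62), with its lowest high smoke library, replicate 4, inside the air range. Igfbp2, an insulin-like growth factor binding protein of these cells, rose with no overlap (0.78, then 0.65). Pdpn and Hopx, also type 1 markers, changed by 0.41 and 0.36, so 4 of 12 type 1 markers rose and none fell. This was 33.3% called, against 9.46% of all genes. Of the 12, 5 had a negative change, the lowest -0.29. The median of the 12 was 0.08 (then 0.11). With equal library totals the median was -0.0004 and 2 of the 12 rose. The summed level of that list overlapped, at 106284 to 127171 in air and 108298 to 123818 in high smoke.

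Surfactant genes split. Sftpc, the hydrophobic surfactant protein made by alveolar type 2 cells, ran 53126, 63133 and 83107 in air and 80064, 94830 and 152860 in high smoke (log2 0.69, adjusted p = 0.0118, then 0.45). Napsa and Ctsh, proteases of surfactant protein processing, changed by 0.82 (then 0.49) and 0.60 (then 0.30), and Sftpd, a collectin that binds microbes, by 0.38 (then 0.29). Sftpb, the other hydrophobic protein, had 0.01 (adjusted p = 0.951). These were 4 rises among 13 surfactant and lamellar body genes tested (30.8% called, against 9.46% of all genes). The median of the 13 was 0.04 and turned to -0.04 with equal library totals. In the airway, the club cell secretory protein Scgb1a1 stood at -0.19 (adjusted p = 0.378). Among 14 ciliated cell markers Tppp3 rose by 0.55, and Dnah5, a heavy chain of the dynein arms, fell by 0.60 on the log2 scale. This was 14.3% called, against 9.46% of all genes.

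Barrier and ion transport genes gave 1 rise and 1 fall among 21 (9.52% called, near the 9.46% of all genes). Cdh1, the cadherin of epithelial junctions, ran 6293, 6826 and 7431 in air and 3691, 5834 and 6425 in high smoke, and its change shrank from -0.41 to -0.17 without the 3. Scnn1g, a subunit of the epithelial sodium channel that clears alveolar fluid, rose (0.57, then 0.29).

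In the vessel wall, 3 of 16 endothelial markers rose and 1 fell (25.0% called, against 9.46% of all genes). The rank-sum test called 1, and after a trend along gene span was taken out 1 rose and none fell. Sox18, a transcription factor of vessel development, changed by 0.50 (then 0.31), Cldn5, a tight junction protein of endothelium, by 0.44 (then 0.38) and Aplnr, the apelin receptor, by 0.35 (then 0.26). Tek, the angiopoietin receptor, fell from a median of 10946 to 9122 (log2 -0.38, then -0.19). Cdh5 stood at -0.12 (adjusted p = 0.484). Calls among contractile and matrix genes lay near or under the share over all genes, with 1 of 13 smooth muscle and pericyte markers (7.69%), 1 of 13 fibroblast markers (7.69%) and 2 of 21 genes of elastic fibre and matrix assembly (9.52%). They were Tagln of smooth muscle, Dcn, a proteoglycan that binds collagen and stands in 2 of the lists, and Mfap5 of elastic microfibrils, which rose by 0.61, 0.57 and 0.76 (then 0.38, 0.47 and 0.36). None of 40 collagen and laminin genes passed, with 8 at an unadjusted p below 0.05 (3880 of 14403 over all genes) and 0 by the rank-sum test.

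Globin transcripts, which come with red blood cells and reticulocytes in the piece, gave 2 rises among the 7 red blood cell genes tested. That was 28.6% called, against 9.46% of all genes, and 2 of the 7 had a negative change. Hbb ran 3021, 3664 and 4076 in air and 4620, 6575 and 11504 in high smoke with no overlap (log2 0.91, then 0.65), and Hba-a2 changed by 0.69 (then 0.71). Hba-a1 lay the other way and did not pass, with 843, 1172 and 1305 in air and 591, 1030 and 1265 in high smoke (log2 -0.21, adjusted p = 0.426); the alpha globin copies can share reads. The summed level of 9 red blood cell genes was 5046 to 7492 in air and 7419 to 15075 in high smoke. Its part in the other results was not tested.

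Of 40 nuclear genes of respiratory complex I, 4 rose and none fell, a share of 10.0% that is near the 9.46% of all genes called, and 2 rose with equal library totals. Of 44 genes of complexes II to V, 8 rose and 2 fell (22.7% called; medians of the nuclear lists 0.09 and 0.10, then 0.03 and 0.03). Ndufc1, a small subunit of complex I, rose from a median of 517 to 1277 (log2 1.26, then 1.05). Uqcrc2, a core protein of complex III, Atp5f1a, a catalytic subunit of the ATP synthase, and Sdhb, the iron-sulfur subunit of complex II, rose with no overlap by 0.56, 0.43 and 0.45 (then 0.38, 0.30 and 0.37). Of 13 transcripts of the mitochondrial genome, none rose and 4 fell (30.8% called, median -0.31, then -0.18), but the rank-sum test called none of them. Their summed level overlapped, with a median of 135268 in air and 134699 in high smoke. Mt-nd2, another complex I subunit, ran 4000, 5250 and 6890 in air and 1375, 3016 and 5040 in high smoke, where replicates 1, 3 and 7 were the 3 lowest libraries (log2 -0.95, adjusted p = 0.0144, then -0.53). Mt-atp6 changed by -1.02 (then -0.59) and Mt-nd4 by -0.61 (then -0.30).

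Of 72 mitochondrial ribosomal proteins tested 9 rose and none fell (12.5% called), among them Mrpl15 (0.68, then 0.49), and the rank-sum test called 3. Of 40 mitochondrial solute carriers none rose and 1 fell (2.5%). Of 19 genes of the tricarboxylic acid cycle 4 rose (21.1%), with Fh, the fumarase, at 0.65 (then 0.42) and Mdh1, a malate dehydrogenase of the cytosol, at 0.53 (then 0.26).

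Some protein breakdown genes also rose. Of 47 proteasome genes tested, 11 rose and 1 fell (25.5% called, against 9.46% of all genes, median 0.12, then 0.07). With equal library totals 7 rose and 1 fell. Psmb4, a subunit of the core particle, ran 373, 508 and 967 in air and 757, 1268 and 1607 in high smoke, with overlap from 1 air library (log2 1.14, adjusted p = 0.00414, then 0.95). Psmc3, an ATPase of the cap, changed by 0.80 (then 0.56). Of 24 genes of the vacuolar ATPase and the Ragulator, which acidify lysosomes and tether mTORC1 to them, 3 rose and none fell. They were Atp6v0e1 (0.65, then 0.41), Atp6v0e2 (0.76, then 0.54) and Lamtor4 (1.21, then 0.74). This was 12.5% called, against 9.46% of all genes, and with equal library totals 3 rose and 2 fell.

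Cytosolic ribosomal proteins went both ways. Of 70 tested, 10 rose and 8 fell (25.7% called, against 9.46% of all genes) with a median of -0.02. With equal library totals 8 rose and 10 fell. Rplp1, a protein of the stalk, rose from a median of 3152 to 4858 with no overlap (log2 0.56, then 0.50), and Rps9 and Rpl11 changed by 1.03 and 1.05 (then 0.60 and 0.54). Among the falls, Rpl36al, Rpl37 and Rps15 stood at -0.84, -0.79 and -0.81. Processed copies of these genes can share reads with them, so their values are uncertain.

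Among genes of the expression machinery, 15.4% of translation factors, 12.0% of splicing factors, 10.3% of chromatin modifiers and 4.64% of zinc finger proteins were called, against 9.46% of all genes. Of 65 translation factors 9 rose and 1 fell, but with equal library totals 3 rose and 5 fell. Eif3b, a scaffold of the initiation complex, changed by 0.30 (then 0.29) and Eif4e2, a cap-binding repressor, by -0.48 (then -0.28). Of 92 splicing factors 6 rose and 5 fell, with Hnrnpa3 at 0.54 and Hnrnph3 at -0.59. In 68 chromatin modifiers 1 rose and 6 fell, including the remodeller Smarcad1 (-0.42, then -0.31). Among 280 zinc finger proteins 7 rose and 6 fell.

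Cholesterol synthesis genes gave falls only. Of 23 tested, 4 fell and none rose (17.4% called, against 9.46% of all genes, median -0.07, then -0.12). Hsd17b7, which reduces the sterol ring ketone during cholesterol synthesis, ran 87.7, 116 and 148 in air and 42.5, 65.8 and 98.8 in high smoke, where only 2 libraries reached the air range (log2 -0.79, adjusted p = 0.0111, then -0.75). Insig1, the sterol sensor that holds the SREBP escort protein in the endoplasmic reticulum, ran 1425, 1638 and 1727 against 987, 1176 and 1461 (log2 -0.39, adjusted p = 0.0111, then -0.29). Sc5d, a sterol desaturase, stood at -0.38 and Stard4, which carries sterol between membranes, at -0.35 (then -0.29 and -0.22).

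Of 24 genes of fatty acid and phospholipid synthesis, 5 rose and 1 fell (25% called, against 9.46% of all genes). Cept1, which completes phosphatidylcholine and phosphatidylethanolamine, Lpcat3, which adds polyunsaturated chains to phospholipids, and Pisd, which makes phosphatidylethanolamine in mitochondria, rose by 0.64, 0.46 and 0.29 (then 0.36, 0.46 and 0.26). With equal library totals, 2 rose and 2 fell.

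Signalling and stress genes changed singly. In the Hippo pathway, which restrains growth, the kinase Stk3 and its partner Sav1 rose by 0.62 and 0.51 and Wwtr1, the co-activator they inhibit, fell by 0.83, from 275 to 189 as medians (then 0.33, 0.31 and -0.43). The other 16 of 19 did not pass, so 15.8% were called, against 9.46% of all genes. In TGF-beta, BMP and Wnt signalling the receptors Tgfbr2 and Bmpr1a and the shared transducer Smad4 fell by 0.37, 0.44 and 0.27, while Id1, a target of BMP signals, and Tgfb1, the ligand, rose by 0.65 and 0.37. These were the 5 calls among 31 genes (16.1%, against 9.46% of all genes), the rank-sum test called none of the 31, and Tgfb1 was named after its value was seen.

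Actin regulators rose in 5 of 18 genes and none fell (27.8% called, against 9.46% of all genes). Tmsb4x, which holds actin monomers, ran 5493, 7660 and 10185 in air and 10310, 11588 and 18928 in high smoke (log2 0.74, then 0.50). Capzb, which caps filament ends, and Cfl1, which severs filaments, changed by 0.51 and 0.32 (then 0.36 and 0.26). Among p53 targets, Phlda3 and Sesn2 rose by 0.55 and 0.39 (then 0.59 and 0.24). Of the unfolded protein response, Herpud1 rose (0.37) and Edem1, which sends misfolded glycoproteins to degradation, fell (-0.45). Of 16 heat shock genes 3 rose and 1 fell (25% called, against 9.46% of all genes). The small heat shock proteins Cryab and Hspb8 and the co-chaperone Dnaja1 rose by 0.73, 0.38 and 0.71 (then 0.43, 0.21 and 0.51), and Hspe1, the co-chaperonin of mitochondria, fell by 0.78 from a median of 26.8 to 14.7 (adjusted p = 0.0492, then -0.75). Among clock genes, Cry2 rose (0.39) and Clock itself fell (-0.35, then -0.29); the labels give no hour of collection. Of 18 cell division genes none passed, with 1 at an unadjusted p below 0.05 (3880 of 14403 over all genes) and 0 by the rank-sum test. A negative change was found in 14 of the 18.

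**Figure D4:**
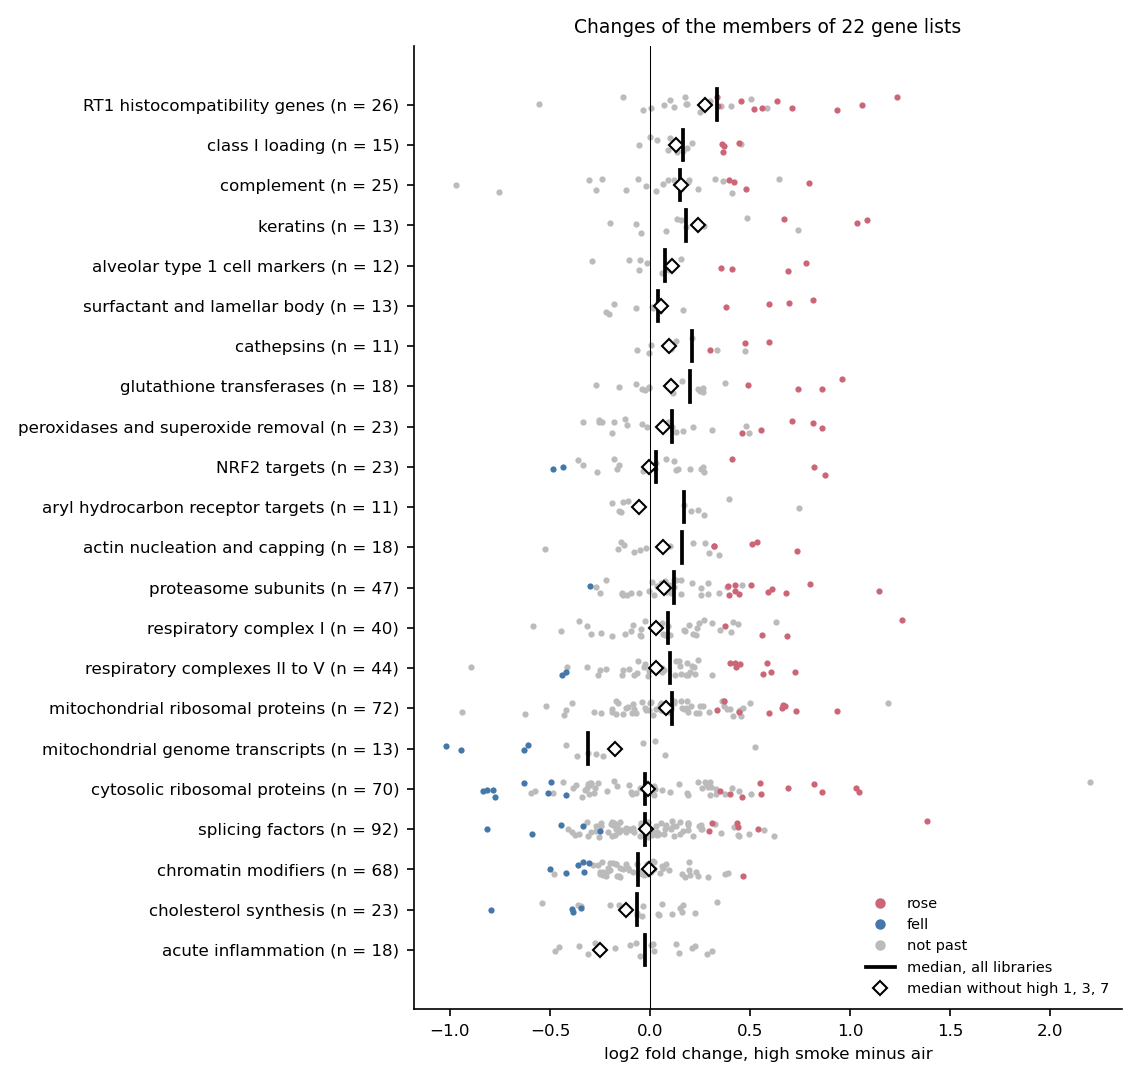
Log2 changes in high smoke against air (horizontal axis) are plotted for the tested members of 22 gene lists (rows), coloured by call, with the list median as a bar and the median without high smoke replicates 1, 3 and 7 as a diamond. The RT1 list has the highest median, 0.34, and the mitochondrial genome the lowest, -0.31, and 16 of the 22 diamonds lie nearer to 0 than their bars.

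Calls were not spread evenly over gene length. Among protein-coding genes the share that rose was 9.56% in the 20% of genes with the shortest genomic span and 2.53% in the 20% with the longest, and the share that fell was 2.23% and 4.84%. The median deviation of the shortest 20% minus that of the longest 20%, on the log2 scale, ran from -0.15 to 0.34 in the air libraries and from 0.02 to 0.28 in high smoke, with air replicate 3 the highest of all. After a trend along span was taken out of each library, 905 genes rose and 490 fell. Of the 34 small nucleolar RNA rows that reached the filter in air alone 24 then rose and 1 fell, and of the 26 RT1 rows 11 rose and none fell. Cytosolic ribosomal proteins turned to 6 rises and 13 falls. Of the 169 genes named, 159 kept their side of the threshold and 10 no longer passed.

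**Figure D5:**
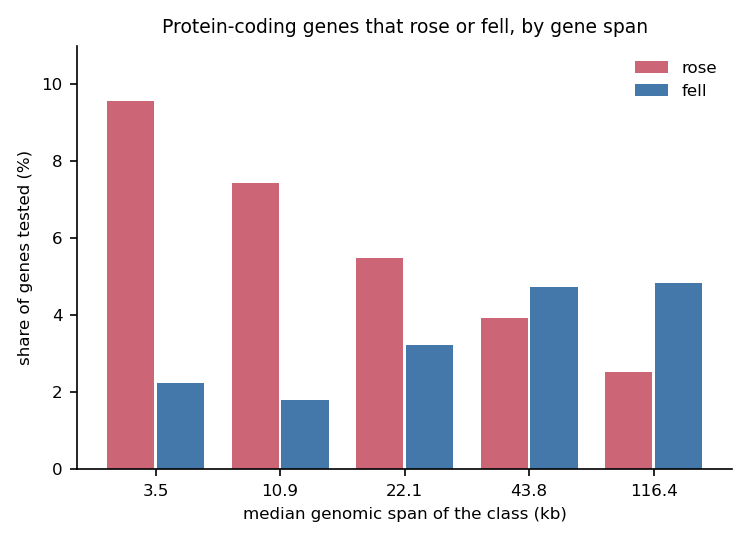
Bars, from 0, give the percentage of tested protein-coding genes that rose and that fell in high smoke in 5 equal classes of genomic span, labelled by the median span in kb. The share that rose declines from 9.56% to 2.53% as span grows, and the share that fell is higher in the 2 longest classes than in the 2 shortest.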

How the data were processed

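RNA from rat lung was sequenced after PrepX library preparation on a NextSeq 500, per the labels' protocols, from 1 µg of RNA with an integrity number of at least 9.0. The submitters' processing notes name STAR 2.7.3a, Partek, DESeq2 and build rn6. The deposited table gives a signal per gene, a count divided by 1 size factor per library. Below 200 reads, 80.7% to 82.8% of the values lay within 0.02 reads of a whole number, so whole reads were not recovered and no count model was used.

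The 7 air and 7 high smoke libraries were fitted alone, without covariates, with limma 3.58.1 in R 4.3.3 (intensity trend on, robust off) on log2(value + 1), a pseudocount that makes the change of low genes too small. Genes were kept if their mean over these 14 libraries reached 10, which left 14403 of 19249, and two-sided p-values were corrected by the Benjamini-Hochberg method over them. "Rose" and "fell" mean an adjusted p below 0.05. On simulated data with 200 changed genes among 14403, the fit recovered 51.1% of 1.5-fold and 85.6% of 2-fold changes, with 3.9% and 4.5% of calls false. Such rates were not computed for libraries of a group that shift together, as some high smoke libraries did. Whether the rates hold for the calls reported here was therefore not tested. The labels name 1 rat per library, and they give no sequencing date. Rat numbers and sequencing index numbers run in blocks by group. Air rats are 1 to 7 with indices 1 to 7, and high smoke rats are 17 to 23 with indices 16 to 22. An effect that follows these numbers cannot be told apart from that of smoke. Depth is known only as read equivalents, so no counting interval was computed.

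The comparison, the gene lists and the naming rule were chosen with earlier results of these data known. The rule took the 15 largest rises and 15 largest falls among called genes whose mean reached 50 in either group and whose name is not clone-based or predicted, the 5 largest rises of small nucleolar RNAs, the 12 rises and 12 falls of smallest p without overlap, up to 4 members of smallest p from each list, the first 2 markers of each cell type, 10 genes known from combustion products and oxidants, and the 10 rises and 10 falls of smallest p without high smoke replicates 1, 3 and 7. Not all of these are printed, and some are not reported here. Of 994 symbols listed by name, 928 were found by symbol, 11 by another symbol and 55 were not matched. A rank-sum test, exact and two-sided, was run beside limma. Alternatives were other pseudocounts, filters, scalings and variance settings, a fit of all 3 groups and leaving out each library. Leaving out high smoke replicates 1, 3 and 7 together and removing the trend along gene span were added after seeing the data, as was the split of small RNA rows by whether their air mean alone reached 10. Positions of genes are as deposited on rn6, and promoters, microRNAs and symbols came from RefSeq on GRCr8.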

Additional observations from a re-analysis of the deposited data

Results flagged for a closer look

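In 13 of the genes named, 1 library lay far from the other 6 of its group, by Dixon's 95% criterion, which chance meets in about 1 group of 20. Whether 13 exceeds what chance would give over all groups screened was not tested. In air, replicate 7 was the highest for Acot8 (506), Atp6v0e1 (2398) and Bambi (305), replicate 1 was the lowest for Mt-atp6 (4469) and the highest for Tek (13680), replicate 2 was the lowest for Tapbp (517), and replicate 3 was the highest for Hmox1 (1395). In high smoke, replicate 4 was the lowest for Ager (12365) and the highest for Me1 (1190), replicate 1 was the highest for Erap1 (8955) and the lowest for Sftpb (8442), replicate 5 was the lowest for Tiparp (331), and replicate 2 was the highest for Fam183a (66.8). All values are normalized counts.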

How the results depend on the processing

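The number of called genes, 1363 by limma with 872 up and 491 down, depended most on which libraries entered. Leaving out 1 library at a time gave 637 to 1847 called, 460 to 1116 up and 177 to 731 down. The count was lowest without high smoke replicates 3 (637), 7 (642) and 1 (723) and air replicates 4 (724), 1 (765) and 2 (818). The falls also moved by over 1.5 times without air replicate 6 (296). Without high smoke replicates 1, 3 and 7 together 3 genes rose and 0 fell, with 1646 at an unadjusted p below 0.05. The fit of all 3 groups called 2343 (1327 up, 1016 down). The exact rank-sum test called 750 (472 up, 278 down). Scaling to the same total gave 1005 falls and array weights 752. Upper quartile scaling gave 797 up and 653 down. The cause of these differences was not tested. None of the 151 called genes named turned in sign under the alternatives run. Of the 18 named genes that were not called 5 did, Sftpb, S100a9, Gclc, Hmox1 and Eif4g1; Hmox1 went from -0.17 to 0.19 without air replicate 3, and Sftpb from 0.01 to -0.06 with the same total. Of the 169 genes named, 148 no longer passed the threshold without high smoke replicates 1, 3 and 7, 51 with the rank-sum test, 40 without high smoke replicate 3, 17 with the intensity trend off and 13 with the same total. No paired analysis was possible because nothing in the labels ties a rat of one group to a rat of another. Fewer low genes were called. In the 20% of genes with the lowest mean level 2.33% of genes rose and 1.53% fell, against 9.41% and 4.65% in the highest. The median SE was 0.24 in the lowest class and 0.09 in the highest, and the part of depth was not tested.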
